A study of Homo sapiens with 6 samples.

Results

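Nucleoporins are the proteins of the nuclear pore complex, the channel in the nuclear envelope through which RNA and proteins pass. The rows described here were chosen by symbol from the gene table of tumors grown from the human breast cancer line MDA-MB-231, and number 31 nucleoporin genes plus IL4I1, in all 32 of 60606 rows. IL4I1, a secreted enzyme that oxidises aromatic amino acids, is no nucleoporin and was included because its annotated gene overlaps NUP62. All 31 nucleoporins and IL4I1 passed the filter of a mean of at least 1 TPM (a gene's share of all transcripts in a sample, scaled for gene length) over the 6 tumors.

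The irradiated group (RT) held 3 tumors that had received 1 local X-ray dose of 10 Gy at about 800 mm3 and were taken 3 days later. The control group (CT) held 3 tumors that were not irradiated. Both were WT MDA-MB-231 cells injected under the skin of the left flank with Matrigel in NSG mice (NOD/SCID/IL2Rγ-null), hosts that lack T, B and natural killer cells but keep macrophages, fibroblasts, vessels and muscle. No volume or day of collection is given for the controls, nor do the labels state that each tumor came from a separate animal. The p-values therefore cover the spread among these tumors alone. In the marker check, VIM was at 3227, 3148 and 3685 TPM in irradiated tumors and at 5283, 4859 and 3797 TPM in controls. ESR1, PGR and CDH1 lay at or below 0.32 TPM in all 6 tumors, while KRT19, listed as a low marker, lay between 109 and 297 TPM.

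The pore is built of rings. The Y complex and the inner ring form its scaffold, membrane proteins anchor it, and nucleoporins rich in phenylalanine and glycine (FG) repeats fill the channel and bind transport receptors. Filaments on the cytoplasmic side take part in the release of exported mRNA, and a basket extends into the nucleus. In dividing human cells the pore is taken apart in mitosis and rebuilt afterwards, and new pores are added in interphase.

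NUP62 (ENSG00000213024) encodes an FG protein of the central channel and lies on the minus strand of chromosome 19 in GRCh38, from 49906825 to 49929763. IL4I1 (ENSG00000104951) lies on the same strand, from 49889654 to 49929539. In GENCODE release 29 the genes share 336 exonic bases, in 2 stretches at the upstream end of NUP62, from 49929326 to 49929539 and from 49927694 to 49927815. These are 13.1% of the 2563 exonic bases of IL4I1 and 5.58% of the 6020 exonic bases of NUP62. Of 8 annotated IL4I1 transcripts, 6 start at the upstream end of NUP62 and 2 have a start of their own, the farther upstream of them 32808 bases away from the upstream end of NUP62. ATF5, a transcription factor gene on the opposite strand, also overlaps exons of NUP62, over up to 626 bases, and the sources used here do not say whether counting used strand.

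**Figure D1:**
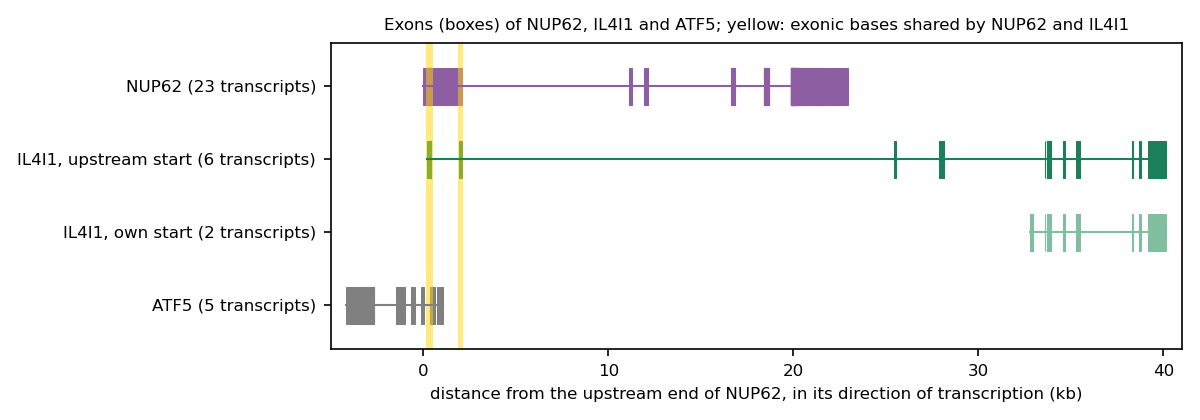
Map of NUP62, IL4I1 and ATF5, with the distance in kb from the upstream end of NUP62 on the horizontal axis and a row for each gene or kind of transcript, in which boxes are exons merged over transcripts. Yellow bands mark the 2 stretches of exonic bases that NUP62 and IL4I1 share, which only the 6 IL4I1 transcripts with the upstream start contain.

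RefSeq (GRCh38.p14) gives both genes the same promoter window, from 250 bases before to 50 bases after the start, with all 300 bases identical. It is shown because it is the region from which both transcripts can begin. It lies at chr19:49929455-49929754 on the minus strand, and capitals mark the 50 bases after the start. The window of NUP88, at chr17:5419613-5419912 on the minus strand, is shown because NUP88 was the nucleoporin that passed the test, and its capitals mark matches to CCAAT on the opposite strand.
NUP62 and IL4I1: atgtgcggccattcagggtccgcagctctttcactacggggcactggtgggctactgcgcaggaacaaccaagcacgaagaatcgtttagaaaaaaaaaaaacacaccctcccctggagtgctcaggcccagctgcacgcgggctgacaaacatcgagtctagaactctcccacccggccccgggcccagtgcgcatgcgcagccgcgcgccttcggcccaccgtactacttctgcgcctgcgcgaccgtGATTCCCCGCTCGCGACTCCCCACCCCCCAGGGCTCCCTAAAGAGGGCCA
NUP88: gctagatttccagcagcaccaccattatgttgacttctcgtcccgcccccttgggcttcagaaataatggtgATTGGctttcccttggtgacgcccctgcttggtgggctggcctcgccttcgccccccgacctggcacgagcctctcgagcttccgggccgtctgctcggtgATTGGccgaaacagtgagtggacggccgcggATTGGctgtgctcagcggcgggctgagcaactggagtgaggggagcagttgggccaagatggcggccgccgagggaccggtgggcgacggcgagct

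Among letters searched on both strands, neither an interferon response element (TTTC, any 2 bases, TTTC), nor TTCNNNGAA (a STAT site), nor TTTGAA (part of the cell-cycle homology region), nor CCAAT, nor the E-box CACGTG was found in the window of NUP62 and IL4I1. These letters are held by 3.57%, 7.66%, 15.2%, 34.6% and 7.26% of the 35116 windows of that length in the RefSeq table. Promoter windows were matched for 30 of the 31 nucleoporins, which have 38 windows. Of those 38 windows, 10 (26.3%) hold TTTGAA, 15 (39.5%) hold CCAAT, and 3, 2 and 1 hold the STAT site, the E-box and the interferon response element. NUP88 holds 3 matches to CCAAT, and NUP160 is the nucleoporin with a match to the interferon response element. A match describes the letters and is not evidence of a bound factor.

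IL4I1 rose in irradiated tumors. It was at 10.2, 10.2 and 10.7 TPM in RT tumors 1, 2 and 3, against 0.36, 0.43 and 0.45 TPM in CT tumors 1, 2 and 3. All 3 irradiated tumors lay far above all 3 controls, and the tumors within each group lay close together. The mean was 10.4 ± 0.300 TPM in irradiated tumors and 0.413 ± 0.0473 TPM in controls (SD, n = 3 each), a ratio of 25.1. The log2 fold change of TPM + 1, irradiated minus control throughout, was 3.01 (95% interval 2.55 to 3.46), and it passed limma's test over 14140 genes with an adjusted p = 0.000236. By size of log2 fold change it was number 25 among all tested genes and number 15 among those that passed. IL4I1 reached the filter on low values through the irradiated tumors alone, so a member at its control level would not have been tested.

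NUP62 itself did not pass. It was at 35.9, 41.7 and 32.5 TPM in the irradiated tumors, against 59.0, 35.8 and 47.2 TPM in the controls. The groups overlapped, because CT tumor 2 lay at the level of RT tumor 1. The means were 36.7 ± 4.68 TPM in irradiated tumors and 47.3 ± 11.6 TPM in controls (SD, n = 3 each), and the log2 fold change of NUP62 lay at -0.34 (95% interval -0.80 to 0.13, limma adjusted p = 0.385).

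Summed per tumor, NUP62 and IL4I1 came to 46.0, 51.9 and 43.2 TPM in the irradiated tumors, against 59.4, 36.2 and 47.6 TPM in the controls. The 3 irradiated values lay within the range of the controls. The mean sum was 47.0 ± 4.46 TPM in irradiated tumors and 47.7 ± 11.6 TPM in controls (SD, n = 3 each), and the log2 fold change of the sum was 0.0037 (95% interval -0.44 to 0.45, limma adjusted p = 0.994). The interval includes changes of either sign, and the direction of this value turned when CT tumor 2 was left out (-0.18) or RT tumor 2 was left out (-0.068). In mean TPM, irradiated minus control, the difference was 9.95 for IL4I1, -10.6 for NUP62 and -0.677 for the sum. The log2 fold change of NUP62 (-0.34) was near the median over the 31 nucleoporins (-0.31). Because TPM is scaled for gene length, reads assigned to the other row need not leave the sum unchanged. IL4I1 made up 22.1%, 19.6% and 24.8% of the sum in the irradiated tumors, against 0.606%, 1.19% and 0.945% in the controls. The mean share was 22.2% ± 2.58 in irradiated tumors and 0.913% ± 0.292 in controls (SD, n = 3 each), with a two-sided exact permutation p = 0.1, the smallest that 3 against 3 tumors can give. The files hold no values per transcript, so how the reads of the shared exons were assigned to the rows, and from which start IL4I1 was transcribed, was not tested.

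**Figure D2:**
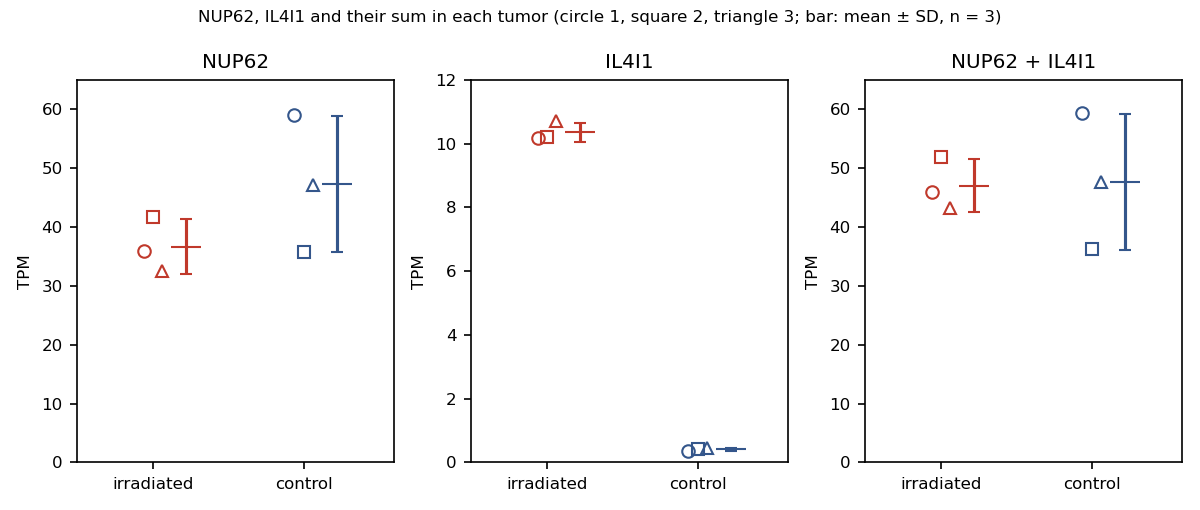
TPM of NUP62, IL4I1 and their sum in each tumor, with irradiated tumors in red and controls in blue and bars for the mean ± SD of 3 tumors. IL4I1 is at 10.2 to 10.7 TPM in irradiated tumors and at 0.36 to 0.45 TPM in controls, while the groups overlap for NUP62 and for the sum.

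The other genes beside NUP62 did not pass the test. ATF5 was at 44.4, 37.3 and 31.7 TPM in irradiated tumors and at 36.8, 22.6 and 37.0 TPM in controls (log2 fold change 0.25, limma adjusted p = 0.563). TBC1D17, a regulator of RAB proteins next to IL4I1, was at 32.1, 40.4 and 34.7 TPM in irradiated tumors and at 30.9, 27.0 and 29.9 TPM in controls, with all irradiated tumors above all controls (0.28, adjusted p = 0.340). The kinase gene VRK3 was at 26.7, 25.4 and 26.2 TPM in irradiated tumors and at 25.7, 22.2 and 15.6 TPM in controls (0.31, adjusted p = 0.403). The groups overlapped for ATF5 and VRK3 and lay apart for TBC1D17. SIGLEC11 was below the filter, with 0.02 TPM in RT tumor 1 and listed at 0 in the other 5.

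IL4I1 is known from antigen-presenting cells and as a gene that interferon can induce, so markers and 3 interferon-induced genes, picked after their values were seen, are given beside it. OASL, which binds viral RNA sensors, was at 257, 146 and 139 TPM in irradiated tumors and at 20.6, 13.5 and 40.2 TPM in controls, and passed (limma adjusted p = 0.00943). IFIT1, which binds foreign RNA, was at 173, 112 and 54.3 TPM in irradiated tumors and at 16.2, 10.7 and 39.9 TPM in controls, and did not pass (adjusted p = 0.0534). ISG15, a ubiquitin-like protein, was at 3230, 1792 and 1048 TPM in irradiated tumors and at 381, 273 and 962 TPM in controls, and did not pass (adjusted p = 0.0817). The groups lay apart in all 3, by a narrow gap for ISG15, and all 3 spread more widely among the irradiated tumors than IL4I1 did. Since the 3 were picked with their values seen, this count says nothing about interferon-induced genes at large. Of 8 macrophage markers 1 (ADGRE1) had all irradiated tumors above all controls, as did 11.6% of all tested genes. ADGRE1 was at 16.2, 16.9 and 11.8 TPM in irradiated tumors against 8.97, 9.37 and 9.08 TPM in controls. The groups overlapped for CD68, CSF1R, AIF1, MRC1 and FCER1G, and the last 4 of these had their highest value in a control. All 8 macrophage markers summed to 109 to 208 TPM in irradiated tumors and to 89.0 to 110 TPM in controls, most of it CD68. TYROBP was listed at 0 in all 6 tumors, with CD163 at or below 0.03 TPM. Whether interferon or reads of host cells contribute to IL4I1 was not tested.

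Among the 31 nucleoporins, 1 fell (NUP88) and 0 rose. That is 3.23% of them, where 1.61% of the 14140 tested genes fell and 1.37% rose, in all 2.98%, so the count of calls was near that over all genes. At an unadjusted p under 0.05 there were 7 nucleoporins, all lower in irradiated tumors, and 0 higher, or 22.6% where 11.5% of all tested genes were lower at that p and 20.5% differed either way. In 8 nucleoporins (25.8%) all irradiated tumors lay below all controls, where 15% of tested genes did, and in 0 they lay above, where 11.6% did, in all 26.6% of tested genes. Fold changes were below 0 in 29 of 31 nucleoporins and in 55.7% of all tested genes, and the median was -0.31 over nucleoporins and -0.056 over all tested genes. In bulk tumors, fewer cells of a type and less RNA per cell cannot be told apart. Some markers of the tumor cells and of host tissue lay apart between the groups, and others overlapped. The 8 genes of the MDA-MB-231 list summed to 3633 to 4131 TPM in irradiated tumors and 4508 to 6005 TPM in controls, most of it VIM. In 3 of the 8 (VIM, CD44 and AXL) all irradiated tumors lay below all controls, as in 15% of tested genes. EGFR, KRT19, ESR1 and PGR overlapped, and CDH1, at or below 0.21 TPM, was above 0 in irradiated tumors only. The 6 fibroblast markers summed to 131 to 214 TPM in irradiated tumors and 474 to 1001 TPM in controls, most of it the collagens COL1A1, COL1A2 and COL3A1. PDGFRB did not fall, at 4.21, 7.28 and 12.8 TPM in irradiated tumors and 3.45, 2.12 and 4.95 TPM in controls. DCN overlapped, and LUM, at or below 0.09 TPM, was above 0 in irradiated tumors only. The 6 muscle markers summed to 0.64 to 77.8 TPM in irradiated tumors and 115 to 319 TPM in controls. The 4 endothelial markers overlapped in sum, at 2.42 to 8.66 TPM in irradiated tumors and 2.07 to 6.24 TPM in controls. Of these, VWF, KDR and CDH5 overlapped. PECAM1 lay above all controls in irradiated tumors, at 0.59, 1.81 and 0.56 TPM against 0.45, 0.20 and 0.30 TPM, as did 11.6% of tested genes. The part of all these markers in the nucleoporin values was not tested.

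The controls were unlike each other. The 31 nucleoporins summed to 965, 1048 and 1002 TPM in the irradiated tumors, against 1385, 1014 and 1278 TPM in CT tumors 1, 2 and 3, so CT tumor 2 lay among the irradiated ones. CT tumor 1 was the highest of the 6 tumors in 23 nucleoporins, and CT tumor 2 was below both other controls in 24. In TPM, 26 of 31 had a larger SD in controls than in irradiated tumors. These counts were not taken over all tested genes, so no share stands beside them and they describe the members only. Among the controls, a high CT tumor 1 and a low CT tumor 2 were not particular to nucleoporins. The median deviation of log2(TPM + 1) from each gene's mean over the 6 tumors was taken per tumor. Over all tested genes it was highest in CT tumor 1 (0.156) and lowest in CT tumor 2 (-0.132). RT tumors 1, 2 and 3 lay between, at -0.074, -0.0061 and -0.013. Over nucleoporins it was 0.416 in CT tumor 1 and -0.098 in CT tumor 2. There RT tumors 1, 2 and 3 were lower still, at -0.202, -0.128 and -0.188. MKI67, a marker of dividing cells, was likewise low in CT tumor 2, at 13.4, 18.2 and 19.4 TPM in irradiated tumors and at 47.6, 18.95 and 39.8 TPM in controls. Its part in the nucleoporin values was not tested. Without CT tumor 2, 5 nucleoporins fell (NUP54, NUP88, NUP93, NUP155 and POM121C) and 0 rose. In that fit 562 of 14228 tested genes fell and 229 rose, in all 5.56%. Without any other single tumor, 0 nucleoporins fell.

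**Figure D3:**
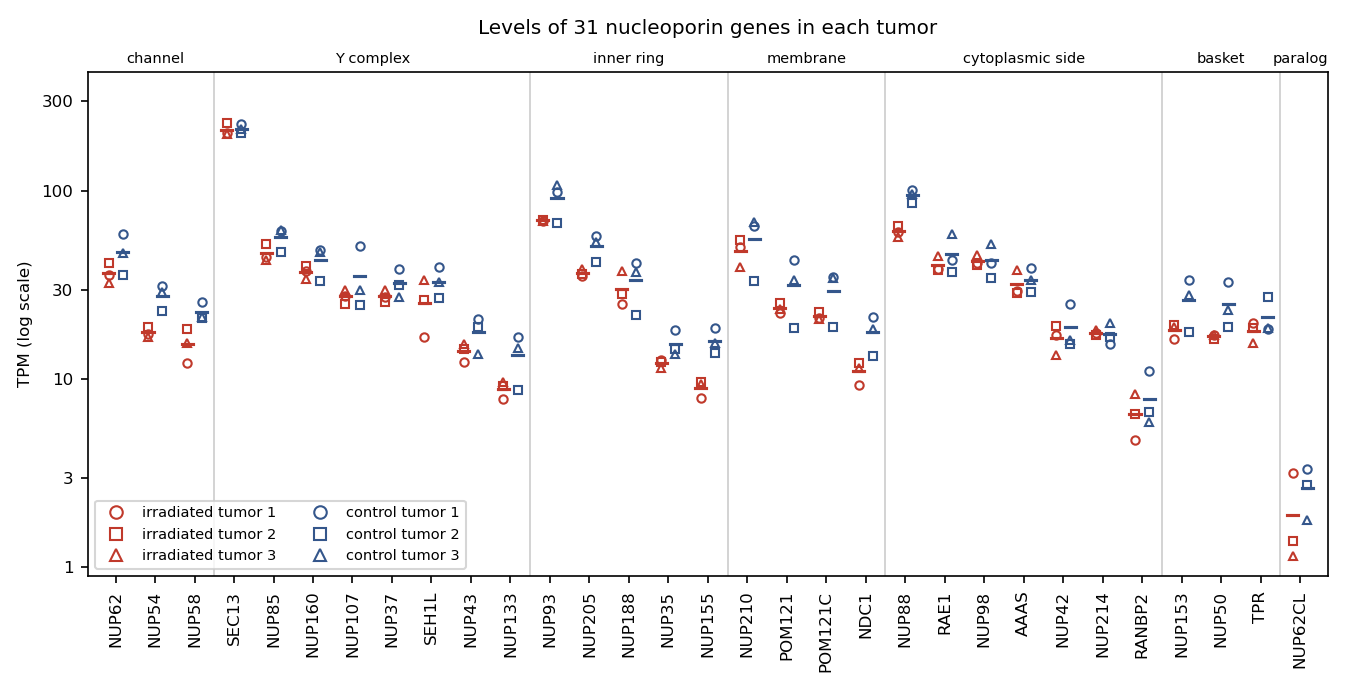
TPM on a log scale of the 31 nucleoporins in each tumor, grouped by their place in the pore, with irradiated tumors in red left of controls in blue and lines at the group means. The blue square for CT tumor 2 lies below both other controls in 24 of the 31 genes, a count not taken over all tested genes.

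On the cytoplasmic side, NUP88, a partner of NUP214 in filaments that face the cytoplasm, was at 60.7, 65.6 and 57.3 TPM in irradiated tumors, against 102, 86.8 and 96.4 TPM in controls. The groups did not overlap. Its mean was 61.2 ± 4.18 TPM in irradiated tumors and 95.1 ± 7.68 TPM in controls (SD, n = 3 each), a log2 fold change of -0.63 (95% interval -0.93 to -0.32, limma adjusted p = 0.0462). The call was lost with the loss of any 1 tumor other than CT tumor 2 (adjusted p 0.112 to 0.161), when low genes were kept in (0.0811), when limma ran with no trend (0.0949) and in a fit with a replicate block (0.127). NUP88 shares up to 520 exonic bases with RABEP1 or RPAIN on the opposite strand, and these had log2 fold changes of -0.83 (adjusted p = 0.122) and -0.37 (adjusted p = 0.152), each with irradiated tumors below all controls. The other 6 genes listed with NUP88, for the cytoplasmic side or for mRNA export, had log2 fold changes between -0.22 and 0.029. In all 6 the groups overlapped. NUP98, which carries FG repeats and whose product is cut to give a Y complex protein as well, was at 42.6 ± 2.61 TPM in irradiated tumors and 42.9 ± 9.14 TPM in controls, and NUP214 at 17.7 ± 0.541 TPM in irradiated tumors and 17.4 ± 2.33 TPM in controls (SD, n = 3 each). RANBP2, the large SUMO ligase of the filaments, was the lowest of the 7, at 4.76, 6.55 and 8.33 TPM in irradiated tumors and 11.1, 6.69 and 5.90 TPM in controls. Reads of RANBP2 are uncertain, since the RGPD genes are close copies of it, and RGPD6 alone averaged 2.85 TPM over the 6 tumors.

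In the central channel, all 3 members had fold changes below 0, and none passed the test. NUP54, which binds NUP62 and NUP58, was at 17.4, 18.96 and 16.9 TPM in irradiated tumors, against 31.4, 23.2 and 29.1 TPM in controls. NUP58 was at 12.3, 18.4 and 15.5 TPM in irradiated tumors, against 25.8, 21.1 and 21.5 TPM in controls. In both, the irradiated tumors lay below all controls. The log2 fold changes were -0.61 for NUP54 (95% interval -0.99 to -0.24, limma adjusted p = 0.0895) and -0.55 for NUP58 (-0.98 to -0.12, adjusted p = 0.152). NUP62, the other member, is described above. NUP62CL, a shorter relative of NUP62, was the lowest nucleoporin row, at 1.91 ± 1.12 TPM in irradiated tumors and 2.63 ± 0.787 TPM in controls (SD, n = 3 each) and with groups that overlapped (log2 fold change -0.36, limma adjusted p = 0.560).

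In the inner ring, NUP155 had the lowest fold change of all nucleoporins. It was at 7.95, 9.69 and 9.39 TPM in irradiated tumors, against 18.8, 13.9 and 15.5 TPM in controls, without overlap (log2 fold change -0.76, 95% interval -1.18 to -0.35, limma adjusted p = 0.0656). It passed with scaling by medians of ratios (adjusted p = 0.0369), with quantile normalization (0.0378), with sample weights (0.0319) and without CT tumor 2 (0.0451). NUP205, a large scaffold protein, was at 35.5, 36.4 and 38.6 TPM in irradiated tumors and at 57.8, 42.2 and 53.6 TPM in controls, also without overlap (-0.45, adjusted p = 0.155). NUP93, which links the ring to the channel proteins, was the most abundant member of the ring and nearly equal in the irradiated tumors, at 69.7, 70.4 and 69.4 TPM. In the controls it was at 99.2, 67.8 and 107.8 TPM, so CT tumor 2 lay just below the irradiated ones (-0.36, adjusted p = 0.310). NUP35 also lay below all controls in irradiated tumors (-0.31, adjusted p = 0.347), and NUP188 overlapped (-0.12, adjusted p = 0.837).

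In the membrane ring, NDC1, which NUP35 and other proteins use as an anchor, was at 9.38, 12.2 and 11.5 TPM in irradiated tumors and at 21.5, 13.3 and 18.6 TPM in controls. The groups did not overlap, at a log2 fold change of -0.63 (95% interval -1.11 to -0.14, limma adjusted p = 0.146). NUP210, the most abundant of the 4, was at 50.2, 55.3 and 39.4 TPM in irradiated tumors and at 65.3, 33.1 and 68.9 TPM in controls (-0.15, adjusted p = 0.804). POM121 and POM121C are near-identical copies on chromosome 7 between which reads can be split, and summed to 43.8, 48.3 and 44.4 TPM in irradiated tumors and to 77.9, 37.7 and 68.1 TPM in controls. In the sum, too, CT tumor 2 was the lowest of the 6.

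The nuclear basket showed the same low value in CT tumor 2 for NUP153 and NUP50, and not for TPR. NUP50, which helps importins release their cargo, was at 17.1, 16.4 and 17.2 TPM in irradiated tumors, against 32.9, 18.9 and 23.3 TPM in controls, without overlap (log2 fold change -0.51, limma adjusted p = 0.222). NUP153, an FG protein of the basket, was at 16.5, 19.4 and 18.96 TPM in irradiated tumors and at 33.5, 17.9 and 27.9 TPM in controls (-0.47, adjusted p = 0.291). TPR, the long coiled protein that forms the basket, was highest in CT tumor 2, at 27.4 TPM, and lay between 15.6 and 19.8 TPM in irradiated tumors and at 18.5 and 18.7 TPM in the other controls.

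The Y complex had 8 members below 0 and 0 that passed, also 0 at an unadjusted p under 0.05. SEC13, which also coats vesicles that leave the endoplasmic reticulum, was the highest nucleoporin row, at 204.7, 231 and 200.6 TPM in irradiated tumors, against 227, 204 and 214 TPM in controls. The groups overlapped, with a log2 fold change of -0.019 (95% interval -0.30 to 0.26, limma adjusted p = 0.948), whose direction turned with each of the 3 other scalings. NUP133, at one end of the Y, had the smallest p of the 8, at 7.89, 9.25 and 9.66 TPM in irradiated tumors and 16.8, 8.73 and 14.8 TPM in controls (-0.50, adjusted p = 0.298). NUP107, a neighbor of NUP133 in the complex, was at 27.8, 25.1 and 29.8 TPM in irradiated tumors and at 51.1, 24.9 and 29.99 TPM in controls, so CT tumor 1 alone stood above the others. The remaining 5 (NUP160, NUP85, NUP43, NUP37 and SEH1L) had log2 fold changes between -0.39 and -0.19, and in all 5 the groups overlapped.

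**Figure D4:**
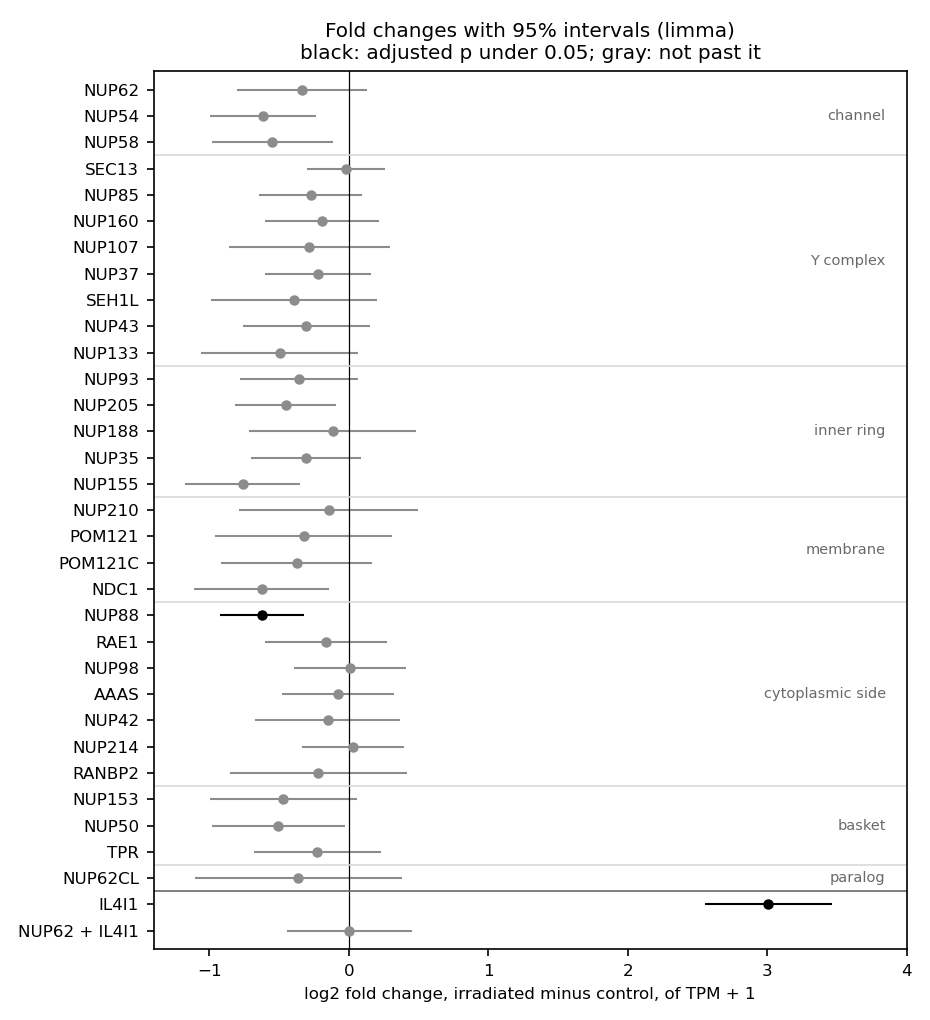
Log2 fold changes of TPM + 1, irradiated minus control, with 95% intervals from limma, for the 31 nucleoporins by place in the pore, then for IL4I1 and for its sum with NUP62. NUP88 at -0.63 and IL4I1 at 3.01 are the genes drawn in black, past an adjusted p of 0.05.

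Of the factors that carry cargo through the pore, 37 of 38 listed genes were tested, and 2 (5.41%) fell and 0 rose. Of all tested genes 1.61% fell, and 2.98% passed in either direction. The median log2 fold change of the transport factors was -0.30, beside -0.31 over nucleoporins and -0.056 over all tested genes. Below 0 were 32 of 37 (86.5%), where 55.7% of all tested genes were. In 8 (21.6%) all irradiated tumors lay below all controls, where 15% of tested genes did. In 2 they lay above, so the groups lay apart in 27.0%, near the 26.6% of all tested genes. RAN, the GTPase that gives transport its direction, was at 683, 642 and 748 TPM in irradiated tumors, against 1152, 1068 and 1033 TPM in controls, without overlap (log2 fold change -0.65, limma adjusted p = 0.0290). RANBP1, which helps RAN hydrolyse GTP, was at 202, 204 and 210 TPM in irradiated tumors, against 357, 313 and 373 TPM in controls, also without overlap (-0.75, adjusted p = 0.0195). Both calls were lost without any 1 tumor other than CT tumor 2 (adjusted p up to 0.116 for RAN and 0.0856 for RANBP1). They were also lost with a replicate block (0.0807 for RAN, 0.0596 for RANBP1), with no trend in limma (0.0859, 0.0585), with low genes kept in (0.0932, 0.0517) and with both tumors numbered 2 left out (0.0905, 0.0510), and RAN also with medians of ratios (0.0676). KPNA4, an importin alpha, lay the other way, at 31.6, 31.2 and 20.4 TPM in irradiated tumors and 17.1, 14.1 and 15.5 TPM in controls, and did not pass (0.78, adjusted p = 0.0832); it was named after its values were seen.

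Of 19 genes of the nuclear envelope and lamina, all tested, 0 passed, where 2.98% of all tested genes did. At an unadjusted p under 0.05, 1 was higher and 2 (10.5%) were lower, where 11.5% of all tested genes were lower. Their median was -0.11, with 11 of 19 (57.9%) below 0, where 55.7% of all tested genes were, so these counts were near those over all genes. The groups lay apart in 15.8% of the 19, where they did in 26.6% of all tested genes. TMEM43, the higher gene, was at 145, 158 and 111 TPM in irradiated tumors, above the 104, 110 and 101 TPM of controls (log2 fold change 0.38, limma adjusted p = 0.227). TMPO, a lamina-associated protein, was at 40.5, 49.4 and 53.3 TPM in irradiated tumors, against 115, 57.8 and 89.7 TPM in controls (log2 fold change -0.81, limma adjusted p = 0.116). LBR, the lamin B receptor, was at 9.60, 14.5 and 14.8 TPM in irradiated tumors, against 23.8, 17.8 and 20.0 TPM in controls (-0.64, adjusted p = 0.139). In both, the irradiated tumors lay below all controls.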

How the data were processed

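RNA of 3 irradiated and 3 control tumors was sequenced from TruSeq libraries of total RNA, per the labels' protocols. The authors deposited TPM per gene to 2 decimals, with HISAT2, StringTie and RSEM listed, on hg38, in the submitters' processing notes, without versions or roles. The sources used here do not give the annotation release, whether counting used strand, or how mouse reads were treated. TPM keeps no depth, so the reads behind a value are unknown and no counting interval is given. All 6 value columns were used.

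The comparison used limma 3.58.1 under R 4.3.3 (trend, two-sided, Benjamini-Hochberg over all genes) on log2(TPM + 1), for genes whose mean over the tumors reached 1 TPM. A gene is called, and said to rise or fall, at an adjusted p under 0.05. For the sum, the 2 rows were replaced by their sum and the whole table fitted again. The fit was checked on simulated data. Positions and overlaps came from GENCODE 29, in which all 32 members were found, and promoters from RefSeq.

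The members and the lists of pore parts, transport factors, envelope genes and markers were chosen with earlier results of these data known. The B cell marker list is not reported here. Values per tumor are given for NUP62, IL4I1, their sum, called members, members at an unadjusted p under 0.05, and the most abundant and lowest-p member of each pore part, plus neighbors of NUP62, MKI67, and from the transport and envelope lists the called genes or, with none called, the 2 with the smallest p. Some others (NUP98, NUP214, RANBP2, NUP107, NUP35, NUP188, TPR, POM121 with POM121C, KPNA4, TMEM43, OASL, IFIT1, ISG15, RPAIN and RABEP1) were added after their values were seen. Alternatives were pseudocounts, filters, scalings, limma options, sample weights, a replicate block and tumors left out.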

Additional observations from a re-analysis of the deposited data

How the results depend on the processing

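IL4I1 kept its direction and call in all 18 alternatives (log2 fold change 1.505 to 4.35, adjusted p 4.5e-05 to 0.0104). NUP62 was not called in any (adjusted p 0.111 to 0.693), nor was its sum with IL4I1 (0.455 to 0.996), which was -0.0057 with sample weights, -0.25 without CT tumor 2 and RT tumor 2, and -0.18 to 0.17 without single tumors. The share of IL4I1 differed by 20.0 to 22.5 percentage points, and the nucleoporin median was -0.48 to -0.21, without single tumors. The median over all tested genes was then -0.13 to 0.015. Nucleoporins with a fold change below 0 numbered 24 to 30 over the alternatives, with the 24 without CT tumor 1. Over all tested genes, 194 higher and 227 lower calls became 69 and 64 with no filter on low values (30037 genes tested), 426 and 638 with sample weights, 88 and 97 with a replicate block, and 61 and 125 without CT tumor 2 and RT tumor 2. Higher calls numbered 309 with quantile normalization, and lower calls 142 without trend. Without single tumors there were 57 to 229 higher and 67 to 562 lower calls, both highest without CT tumor 2. Of all tested genes, 7.52% were called in either direction with sample weights, 4.14% with quantile normalization and 3.59% with medians of ratios. This share was 0.443% with no filter, 1.97% without trend, 1.31% with the block and 1.31% without CT tumor 2 and RT tumor 2. Without single tumors it was 0.90% to 5.56%. The counts of members that follow are to be read beside these shares. Nucleoporins called lower numbered 4 with sample weights (NUP54, NUP88, NUP155 and NUP205), 2 with medians of ratios and with quantile normalization (NUP88 and NUP155), 0 with no filter, without trend, with the block and without CT tumor 2 and RT tumor 2, and 0 to 5 without single tumors. Transport factors called lower numbered 4 with sample weights, beside 1 called higher, 0 with no filter, without trend, with the block and without CT tumor 2 and RT tumor 2, and 0 to 5 without single tumors. Of the envelope genes, 1 was called lower with sample weights and 0 to 1 without single tumors.

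The replicate numbers gave no sign of pairing, since deviations of same-numbered tumors from their group means had correlations of -0.0433, -0.0459 and -0.0590 across genes, and no irradiated tumor correlated best with the control of its own number. Directions turned in members near 0. SEC13 was 0.032 with medians of ratios, 0.034 with quantile normalization, 0.011 without mitochondrial and ribosomal protein genes, and 0.0088 with sample weights. NUP98 was -0.14 with sample weights and -0.10 without CT tumor 2 and RT tumor 2, and NUP214 was -0.045 with sample weights. Without single tumors, ranges that crossed 0 were -0.20 to 0.026 for AAAS, -0.39 to 0.059 for NUP188, -0.31 to 0.021 for RAE1, -0.13 to 0.16 for NUP98, -0.50 to 0.0091 for NUP107, -0.052 to 0.13 for NUP214, -0.48 to 0.039 for NUP210, -0.28 to 0.059 for NUP42, -0.39 to 0.023 for RANBP2 and -0.083 to 0.021 for SEC13. The cause of these turns was not tested. In all, 516 of 557 pairs of a nucleoporin and an alternative kept direction and call, and NUP62CL was not tested with a minimum mean of 5 TPM. Precision is limited by 3 tumors a group and by the spread of the controls, and the depth behind the TPM values is unknown.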
